A study of Bos taurus with 6 samples.

Results

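The 4 genes described here handle polyamines, glutamine and riboflavin. They are SAT1, GLUL, SLC38A2 and SLC52A3, each described here by 1 of the 24128 probe sets of an Affymetrix bovine array. No other probe set shares their cluster numbers, and probe sets of these genes under another number were not looked for, since names come from the authors' deposited table alone. The genes were taken from the 158 probe sets of the authors' deposited table by symbol or title. SAT1 is titled there as diamine acetyltransferase 1 under the symbol MGC127572, and SLC52A3 appears under C20orf54, which RefSeq lists as its synonym. All arrays came from cortical pieces of fetal bovine ovaries, obtained at a slaughterhouse and cultured for 2 days. The insulin group (ITS+, 3 arrays) received insulin, described by the submitters as stimulating follicle activation. The control group (TS+, 3 arrays) received the control medium, which the labels list as containing linoleic acid, BSA, selenous acid and transferrin. The design text describes control pieces as rich in primordial follicles and insulin pieces as rich in primary follicles. The sources used here give neither fetal age nor the number of fetuses nor any pooling. The labels do not tie replicates to separate fetuses or cultures, so p-values and SDs measure only the spread between these arrays, which may be technical.

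Polyamines (putrescine, spermidine and spermine) are small positively charged molecules that bind nucleic acids and are needed for growth. Cells make them from ornithine, and SAT1 acetylates spermidine and spermine so that they can be broken down or exported. Glutamine feeds nucleotide and amino acid synthesis: GLUL makes it from glutamate and ammonia, and SLC38A2, a sodium-coupled transporter, brings it and other small neutral amino acids into the cell. Riboflavin cannot be made by mammalian cells, which take it up through carriers such as SLC52A3 and turn it into the cofactors FMN and FAD of flavin-dependent enzymes. In the ovary, the oocyte relies on the granulosa cells around it for many of its amino acids.

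The authors' deposited table holds p-values below 0.001 for insulin against control, and the genes were drawn from it, so their differences between the media are given below as a description and not as a test. Each gene's cluster number is carried by 1 probe set on the array, so no second probe set could be set beside it. In bulk tissue, fewer cells of a type and less RNA per cell cannot be told apart. None of the 36 listed markers of oocytes, granulosa, theca, stroma, endothelium, leukocytes and red cells has a named probe set here, so neither the labelled tissue nor the mix of cells could be checked.

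With insulin, SAT1 fell to 0.416 of its mean signal in control medium and GLUL to 0.586, and SLC52A3 rose to 3.00 times its control mean, while SLC38A2 stood at 0.683. Fold values compare the group means of the linear signal. Log2 differences are insulin minus control on the log2(signal + 16) scale, with the standard error (SE) of a limma fit over all probe sets tested. In that fit 3 of the 4 genes passed an adjusted p of 0.05, against 2.26% of the 14410 probe sets tested, a share from which nothing is read because the genes were chosen on this contrast. GLUL and SAT1 were among the lower calls (1.08% of probe sets tested) and SLC52A3 among the higher ones (1.18%), and SLC38A2 did not pass. With a block for the replicate number 4 of 4 passed, SLC38A2 included, against 6.36% of all probe sets tested. The pairing by replicate number was taken from these same data, not from the labels, so the added calls are no separate support. Without control replicate 3, 0 of the 4 passed, against 0.0208% of all probe sets tested.

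**Figure D1:**
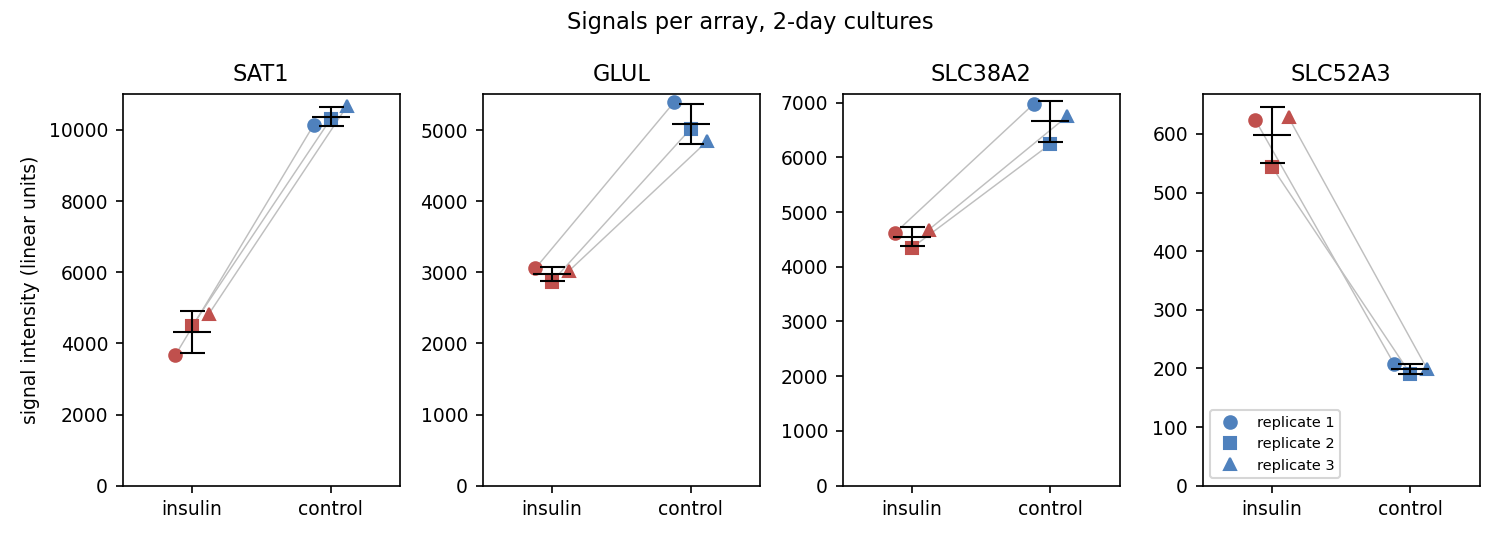
Signal intensity (linear units, from 0) of SAT1, GLUL, SLC38A2 and SLC52A3 on each insulin array and each control array after 2 days of culture. Points are arrays, symbols mark the replicate number, grey lines join arrays of one number, and black bars give the mean and SD of 3 arrays. The groups do not overlap in any panel: the first 3 genes lie lower with insulin and SLC52A3 lies higher. Of all probe sets tested, 11.9% were separate in the lower direction and 12.3% in the higher direction. The genes were chosen on this contrast, so nothing is read from this.

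SAT1 (Bt.7594.1.S1_at), the acetyltransferase that starts polyamine breakdown, read 3667, 4479 and 4814 on insulin arrays 1, 2 and 3, against 10148, 10299 and 10671 on control arrays 1, 2 and 3. All insulin arrays lay below all control arrays, and the lowest control array was still 2.11 times the highest insulin array. Its mean signal was 4320 ± 590 with insulin and 10373 ± 269 in control medium (SD, n = 3 each), an insulin over control ratio of 0.416. The log2 difference was -1.27 with an SE of 0.14. Insulin replicate 1 was the lowest array, and the coefficient of variation was 13.6% among insulin arrays and 2.59% among control arrays. SAT1 was the only one of the 4 genes with an insulin coefficient of variation above 8%, that of SLC52A3 being 7.93%. Without insulin replicate 1 the log2 difference was -1.16, and over all single omissions it ran from -1.35 to -1.16.

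GLUL (Bt.12472.1.S1_at), the glutamine synthetase, read 3055, 2867 and 3015 on insulin arrays 1, 2 and 3, against 5389, 5017 and 4844 on control arrays 1, 2 and 3. The insulin arrays lay close together and all below the control arrays, with the nearest arrays of the groups 1.59-fold apart. Mean signals were 2979 ± 98.9 with insulin and 5083 ± 279 in control medium (SD, n = 3 each), a ratio of 0.586. The log2 difference was -0.77 with an SE of 0.11. Single omissions left it between -0.80 and -0.72, and only the omission of control replicate 1 left GLUL past the limma threshold. Of the 14410 probe sets tested, 242 passed with that omission and from 3 to 59 with the others. The lost calls are thus not particular to GLUL.

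SLC38A2 (Bt.9238.1.S1_at), the amino acid transporter, read 4621, 4347 and 4673 on insulin arrays 1, 2 and 3, against 6977, 6244 and 6747 on control arrays 1, 2 and 3. Replicate 2 was the lowest array of both groups, and the groups did not overlap. With insulin the mean was 4547 ± 175 and in control medium 6656 ± 375 (SD, n = 3 each), a ratio of 0.683. Its log2 difference of -0.55, with an SE of 0.11, was the smallest of the 4 genes. The nearest arrays of the groups were 1.34-fold apart.

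SLC52A3 (Bt.27910.1.S1_at), the riboflavin transporter, ran the other way. It read 624, 544 and 628 on insulin arrays 1, 2 and 3, against 208, 190 and 199 on control arrays 1, 2 and 3. Every insulin array lay above every control array, and the lowest insulin array was 2.61 times the highest control array. The mean was 599 ± 47.5 with insulin and 199 ± 8.96 in control medium (SD, n = 3 each), a ratio of 3.00. On the log2 scale the groups were 1.51 apart (SE 0.12). This was the dimmest of the 4 probe sets, and the filter on dim probe sets stood at a mean signal of 122. Its log2 difference therefore moved with the pseudocount, from 1.58 with a pseudocount of 1 to 1.33 with 64.

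For all 4 genes the arrays of the groups were separate, as they were for 11.9% of the 14410 probe sets in the lower direction and 12.3% in the higher direction. Taken by replicate number, SAT1 differed by -1.46, -1.20 and -1.15 on the log2 scale in numbers 1, 2 and 3. GLUL differed by -0.82, -0.80 and -0.68, and SLC38A2 by -0.59, -0.52 and -0.53. SLC52A3 differed by 1.51, 1.44 and 1.58. In 3 of 3 replicate numbers SAT1 was the most lowered, then GLUL, then SLC38A2. The estimates for GLUL and SLC38A2 lie 0.22 apart with an SE of 0.11 each, and their difference was not tested.

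**Figure D2:**
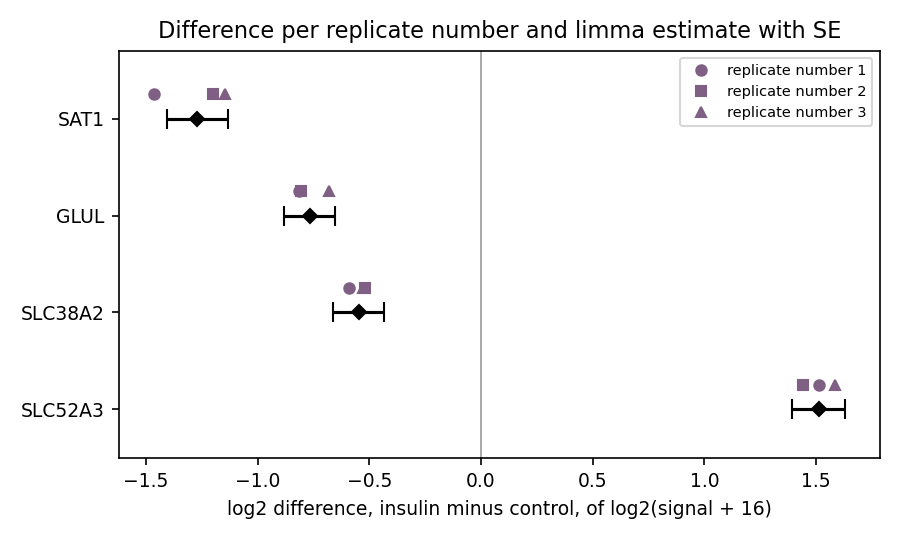
Log2 difference of insulin minus control on the log2(signal + 16) scale for SAT1, GLUL, SLC38A2 and SLC52A3. Purple symbols are the differences between arrays of one replicate number, and black diamonds with bars are the limma estimates with their SE over 6 arrays. SAT1 sits at -1.27, GLUL at -0.77, SLC38A2 at -0.55 and SLC52A3 at 1.51, and no symbol of a gene crosses 0.

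Set among all probe sets tested, whose median log2 difference was -0.00 with quartiles of -0.18 and 0.17, the genes differ in how far out they lie. SLC52A3 was matched or exceeded in size by 0.409% of probe sets and was number 20 among rises. SAT1 was matched or exceeded by 0.763% and was number 66 among falls. For GLUL this share was 3.47% and for SLC38A2 7.82%, so differences of their size were more common. The 3 lower genes are bright probe sets. Probe sets within 0.5 of their mean log2 signal had median log2 differences of 0.08 around SAT1 (325 probe sets), 0.07 around GLUL (697) and 0.08 around SLC38A2 (395), on the other side of 0 from the genes. Around SLC52A3 the median was -0.00 over 3865 probe sets.

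**Figure D3:**
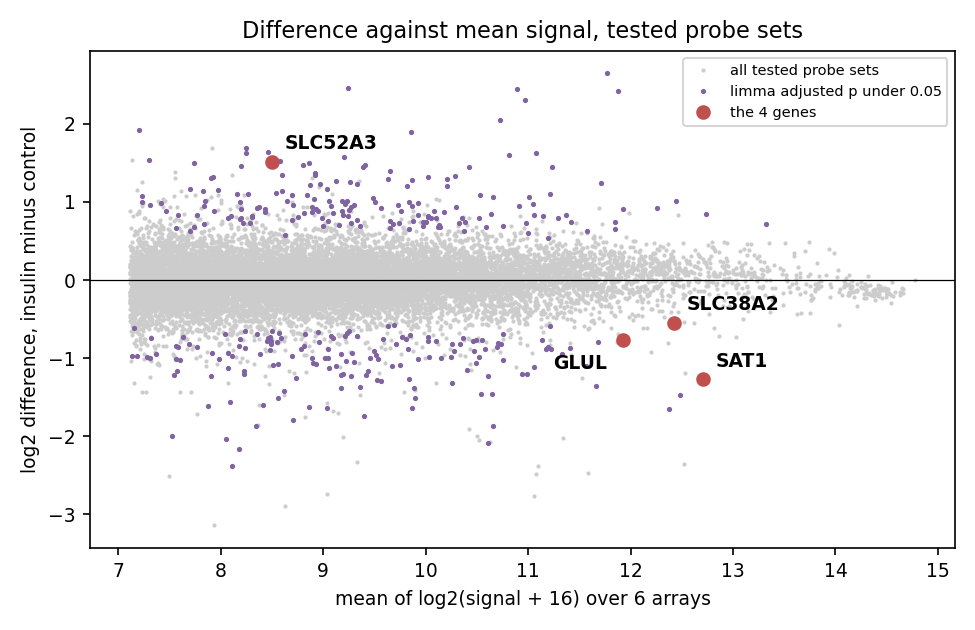
Log2 difference of insulin minus control against the mean of log2(signal + 16) over 6 arrays, for the 14410 probe sets tested (grey), those past a limma adjusted p of 0.05 (purple) and the 4 genes (red). SAT1, GLUL and SLC38A2 lie below 0 among bright probe sets, and SLC52A3 lies above 0 at a lower mean signal.

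In the authors' deposited table SAT1 has a log2 ratio of -1.27 and a fold of 0.416, number 2 of its 68 lower rows. GLUL has -0.76 in the authors' deposited table, number 27 of the 68, and SLC38A2 has -0.55, number 37. SLC52A3 has 1.45 and a fold of 2.72 in the authors' deposited table, number 4 of its 90 higher rows. The log2 ratios of the authors' deposited table differed from those computed here by at most 0.07 for the 4 genes. With a pseudocount of 1 the largest difference was 0.13. The order by p in the authors' deposited table is another one. SLC52A3 came at number 12 with 3.62e-05 and GLUL at number 28 with 0.000133. SAT1, whose log2 ratio lay further from 0 than that of GLUL, came at number 79 with 0.000434, and SLC38A2 at number 116 with 0.000672. The row closest to the limit in the authors' deposited table was HSD17B11, a dehydrogenase, at 0.000998. Just outside 0.001, ranked by an ordinary t statistic on the signals used here, was the unnamed probe set Bt.24124.1.A1_at, with a log2 difference of -2.03.

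Few other genes of these pathways carry a name. Lists of 130 genes were drawn up for polyamine synthesis, breakdown, use and transport, for glutamine and glutamate metabolism, amino acid transporters, riboflavin uptake with flavin synthesis, and flavin-dependent enzymes. Of these, 6 genes with 7 probe sets are named in the authors' deposited table, among them the 4 above. The rest were PSAT1, with a pair of probe sets, and SQLE. All 7 rows come from that table, so their direction is no independent evidence. In the limma fit 4 of the 7 were higher with insulin and past the threshold, 2 were lower and past it, and 1, SLC38A2, was not past it. Of the 14410 probe sets tested, 1.18% were higher and past the threshold and 1.08% lower and past it, and nothing is read from the difference because the rows were chosen on this contrast. None of the 13 genes of polyamine synthesis, such as ODC1 and AMD1, has a named row, nor do the 10 of polyamine use and transport. Genes without a named row could not be examined here, so whether they differ between the media is not known. SAT1 is the 1 named gene of 7 for polyamine breakdown and restraint, SLC38A2 the 1 of 31 amino acid transporters, and SLC52A3 the 1 of 6 for riboflavin uptake and flavin synthesis.

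PSAT1, which uses glutamate as the amino donor in serine synthesis, belongs to the list that holds GLUL, where 3 rows of 2 genes out of 24 are named. Its probe set Bt.13588.1.A1_at read 3698, 4360 and 3896 on insulin arrays 1, 2 and 3, against 1360, 1684 and 1318 on control arrays 1, 2 and 3. The other, Bt.13588.2.S1_at, read 691, 728 and 679 with insulin, against 239, 320 and 324 in control medium. Both PSAT1 probe sets were higher on every insulin array, the opposite direction to GLUL, with log2 differences of 1.45 (SE 0.14) and 1.22 (SE 0.15). Such a separation was seen for 12.3% of the probe sets tested, and these rows were chosen on this contrast.

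SQLE, the squalene epoxidase of cholesterol synthesis, uses FAD and is the 1 named gene among 42 flavin-dependent enzymes. It read 2156, 2129 and 2133 on insulin arrays 1, 2 and 3, against 1071, 947 and 976 on control arrays 1, 2 and 3. Its log2 difference was 1.09 with an SE of 0.11, in the same direction as SLC52A3. A row without a symbol, Bt.21406.1.A1_at, titled as moderately similar to a dog protein like cytochrome b5 reductase b5R.2, was not on the list and was chosen after its values were seen. It averaged 224 ± 17.9 with insulin and 134 ± 3.74 in control medium (SD, n = 3 each). Both rows lay higher on each insulin array than on any control array, as did 12.3% of the probe sets tested. Nothing is read from this, because the rows were drawn from a table made on this contrast. The control mean of the reductase-like row was close to the filter of 122.

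**Figure D4:**
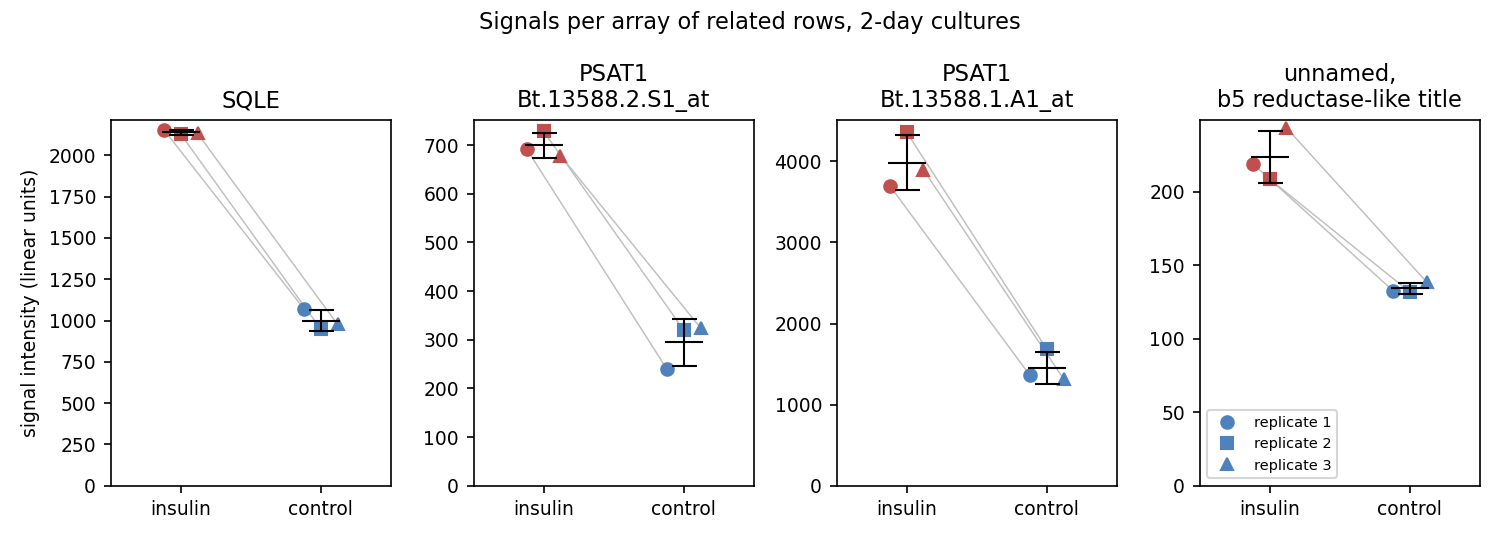
Signal intensity (linear units, from 0) on each insulin array and each control array for SQLE, both PSAT1 probe sets and an unnamed row with a title like a cytochrome b5 reductase. Points are arrays, symbols mark the replicate number, grey lines join arrays of one number, and black bars give the mean and SD of 3 arrays. Each panel shows the insulin arrays above the control arrays, as for SLC52A3 and unlike SAT1, GLUL and SLC38A2. The rows were drawn from the authors' deposited table on this contrast, so nothing is read from this. Of all probe sets tested, 12.3% were separate in that direction.

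Beyond the contrast, the deviations of the arrays from their group means were set side by side for these genes. Deviations from the group mean on the log2(signal + 16) scale were at most 0.09 for GLUL and SLC38A2 and 0.13 for SLC52A3, and reached 0.23 for SAT1. Over the 6 arrays the deviations of SLC38A2 and SLC52A3 correlated at a Pearson's r of 0.87, those of GLUL and SLC52A3 at 0.71 and those of GLUL and SLC38A2 at 0.61. For SAT1 the values were below 0, at -0.37 with GLUL, -0.22 with SLC52A3 and -0.08 with SLC38A2. After quantile normalization they were -0.34, -0.38 and -0.50 for the same pairs, while those among GLUL, SLC38A2 and SLC52A3 lay between 0.60 and 0.85. GLUL, SLC38A2 and SLC52A3 were each lowest on insulin replicate 2 among insulin arrays, where SAT1 was lowest on replicate 1. These values are descriptions over 6 arrays that share scaling and, within a group, sum to 0. Likeness between other pairs of probe sets was not set beside them.

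**Figure D5:**
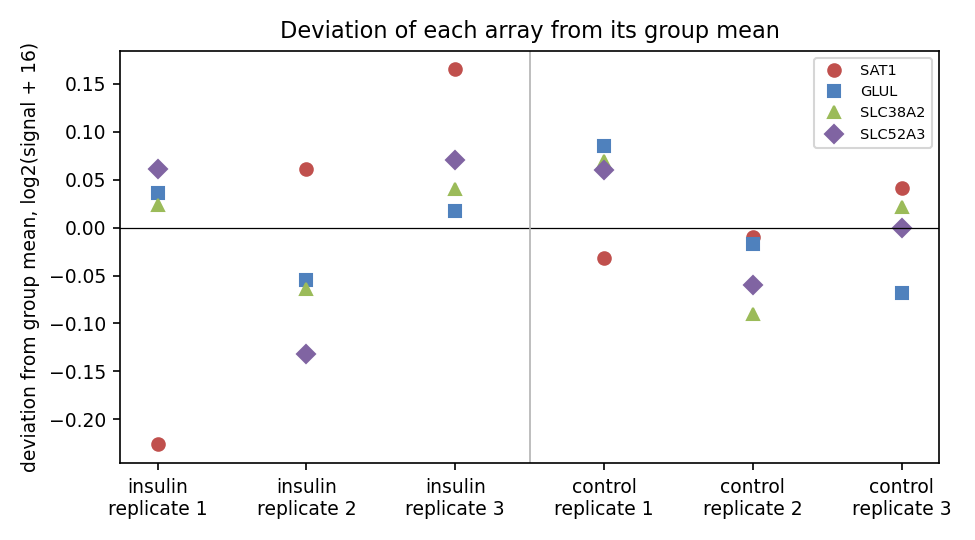
Deviation of each array from its group mean on the log2(signal + 16) scale for SAT1, GLUL, SLC38A2 and SLC52A3, with insulin arrays on the left and control arrays on the right. The 3 SAT1 points of the insulin arrays spread most widely, down to -0.23 on replicate 1, while the other genes lie together below 0 on insulin replicate 2.

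Among 94 genes with a name in the authors' deposited table, the deviations most like those of SLC52A3 were those of SCD, the stearoyl-CoA desaturase (r = 0.97), POLR2D, an RNA polymerase subunit (0.96), and HIKESHI, a nuclear import carrier (0.96). For SLC38A2 they were BCL6, a transcriptional repressor (0.97), HIKESHI (0.90) and MED31, a Mediator subunit (0.89). For GLUL they were GNG10, a G protein subunit (0.96), AURKB, a mitotic kinase (0.92), and UQCRFS1, a subunit of respiratory complex III (0.89). For SAT1 they were PPP1R8, a regulatory subunit of protein phosphatase 1 (0.93), COPZ2, a coatomer subunit (0.89), and CXCL14, a chemokine (0.89). Of these 12 pairs, 6 have log2 differences between the media of the same sign and 6 of opposite sign. All 3 pairs of SLC52A3 have the same sign, with SCD at 2.04, as have 2 of 3 for SLC38A2 and 1 of 3 for SAT1, and none of the 3 for GLUL. PPP1R8 and COPZ2 have log2 differences between the media of 0.26 and 0.76 where SAT1 has -1.27, and AURKB has 0.91 where GLUL has -0.77. After quantile normalization 4 of the 12 were still among the closest 3, namely PPP1R8, COPZ2, AURKB and SCD. These are the highest values of a search over many genes with 6 arrays, so a high r can arise from the search alone. Shared regulation was not tested.

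By RefSeq names and gene order (ARS-UCD2.0), SLC38A2 lies between its paralogues SLC38A4 and SLC38A1, SAT1 between APOO and ACOT9, GLUL between ZNF648 and TEDDM1, and SLC52A3 between FAM110A and SCRT2. None of these neighbours has a named row in the authors' deposited table. RefSeq lists 1 mRNA model for SAT1 and for SLC52A3, 2 for SLC38A2 and 3 for GLUL, and which of them each probe set reads was not examined here.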

How the data were processed

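The 6 arrays, 3 with insulin and 3 in control medium, were grouped and numbered by their titles. The deposited value table holds 1 linear signal intensity per probe set, already scaled by the authors: array medians lay between 196 and 212. The submitters' processing notes name GCOS, the Affymetrix software, and its version and settings are not given in the sources used. The authors' deposited table gives a log2 ratio, a fold (linear ratio), a p-value and a t score per probe set for insulin against control, per the file headers. Its 9 per-array columns, those with day 0 names among them, are matched to no sample here and were not used.

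Signals were analysed as log2(signal + 16). The 112 control probe sets and the 40% with the lowest mean log2 signal were left out, which left 14410. The groups were compared in limma (3.58.1, R 4.3.3; lmFit and eBayes), insulin minus control, with Benjamini-Hochberg adjustment at 0.05. Precision is limited by the 3 arrays per group. Python 3.11.15 and pandas 2.3.3 made the tables.

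Insulin and control arrays of one number deviated together from their group means. Their correlations were 0.56, 0.31 and 0.42 for numbers 1, 2 and 3, all above 0.1. Arrays of different numbers correlated at -0.41 to 0.13, so the limit of 0.1 alone does not separate arrays of one number from the others. The numbers were taken to pair the arrays in the fit with a replicate block and where differences are given by replicate number. This pairing comes from the data, not from the labels. The main fit has no block for the replicate number, so its SEs and calls treat the arrays as unpaired. Within a group, log2 signals of replicates correlated at 0.953 to 0.980, and each counted as its own sample.

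Of the 158 rows of the authors' deposited table, 97 have a gene name: 33 by symbol, 35 by gene number, 9 by synonym (RefSeq, ARS-UCD2.0, names and gene order only) and 20 read from the title, among them SAT1 and SQLE. The genes, lists and tests were chosen with earlier results of these data known. Besides the 4 genes, the text names every named list row, the 3 named genes closest to each by within-group deviations, and rows next to the p limit. Coordinates are left out, because no genome build comes with the values, and no sequence is printed, because none was used here.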

Additional observations from a re-analysis of the deposited data

How the results depend on the processing

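The unfiltered fit with a trended robust variance was added after seeing the data. Over 18 alternatives a gene, the authors' own log2 ratio included, each log2 difference kept its sign: SAT1 from -1.35 to -1.16, GLUL from -0.81 to -0.72, SLC38A2 from -0.59 to -0.51 and SLC52A3 from 1.33 (pseudocount of 64, the 1 value that moved by more than the replicate SD) to 1.58. The count of the 4 genes past the limma threshold was 3, and 0 without a filter, 1 with an ordinary t statistic, 4 with the replicate block and likewise 4 with a pseudocount of 64, a filter at 60%, quantile normalization, array weights or a trended robust variance, with or without the filter, and ran from 0 (without control replicate 3) to 3 over single omissions. Of the 7 list rows 6 passed, 0 without a filter, 2 with an ordinary t statistic, 7 under each setting that called all 4 genes, and from 0 to 6 over single omissions. Nothing is read from these counts, because the genes and list rows were chosen on this contrast. Over all probe sets 326 of 14410 passed, 2 of 24016 without a filter and 402 of 9607 with a filter at 60%. A pseudocount of 64 gave 379, quantile normalization 321 and an ordinary t statistic 12. A trended robust variance gave 542, and 423 of 24016 with no filter. Array weights gave 605 and the replicate block 916. Single omissions gave from 3 (without control replicate 3) to 242 (without control replicate 1). The cause was not tested. The block changed the call of SLC38A2 and of no other gene of the 4. After quantile normalization the likeness of SAT1 to SLC38A2 was -0.50, to SLC52A3 -0.38 and to CXCL14 0.73, of GLUL to GNG10 0.70 and to UQCRFS1 0.68, and of SLC38A2 to BCL6 0.79 and to HIKESHI 0.78. Alternatives planned for further probe sets of a gene gave no value, as no other probe set shares a cluster number with the 4.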
